A study of Arabidopsis thaliana with 4 samples.

Results

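The genes described here are the 17 laccase genes of Arabidopsis thaliana, LAC1 to LAC17, and the 19 genes of the SKU5 and SKU5-similar (SKS) family. They were taken by locus identifier, 36 of the 33602 genes counted, and all were found. Laccases are secreted enzymes that hold copper ions and use oxygen to oxidise phenolic substrates. In secondary walls they couple monolignols into lignin, a task shared with peroxidases that use hydrogen peroxide. SKU5 and the SKS proteins are related to laccases in sequence. SKU5 itself is a glycoprotein of the plasma membrane and wall that affects the direction of root growth, and for most SKS members the substrate is not known.

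The study sorted protoplasts from floral abscission zones of ebp1 mutants in the Col-0 background. Residuum cells (REC, 2 libraries) stay on the receptacle and secession cells (SEC, 2 libraries) leave with the shed organ. All 4 samples carried the ebp1 mutation and a nuclear GFP–GUS reporter under the QRT2 promoter, as the design text names it, and were sorted by its fluorescence. Plants were grown in soil, and the labels give no age. The comparison asks how these families differ between the sides of the break. Without wild-type libraries the effect of ebp1 itself is not measured here. Sequencing depth in genes ran from 12191718 to 16102115 a library. Levels are counts per 1000000 (CPM) of the scaled library size, log2 fold changes are REC minus SEC from the fit, and a gene is called when its adjusted p is under 0.05 by edgeR's quasi-likelihood test over 18384 tested genes. The labels do not tie the replicates to different plants, and the p-values therefore cover the spread between these samples alone, which may be technical. In such bulk libraries fewer cells that express a gene cannot be told apart from less RNA per cell.

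The 5 abscission zone markers all had counts on both sides, but not at like levels. QRT2, whose promoter by the design text drove the reporter used for sorting, had 493 and 568 CPM in RECs, against 459 and 694 CPM in SECs. HAE, a receptor kinase gene of abscission, had 440 and 459 CPM in RECs, against 160 and 355 CPM in SECs. The related receptor gene HSL2 had 106 and 143 CPM in RECs, against 68.3 and 127 CPM in SECs. ADPG2, a polygalacturonase gene of cell separation, was called higher in SECs, with 22.8 and 21.9 CPM in RECs, against 147 and 171 CPM in SECs. IDA, the peptide ligand of HAE and HSL2, was nearly absent from RECs and also called, with 0.471 and 0.867 CPM in RECs, against 32.5 and 13.9 CPM in SECs. The SEC libraries differed more from each other than the REC libraries did, with a chi-square of 70.8 per degree of freedom in the SEC pair and 5.39 in the REC pair. SEC replicate 1 also held relatively more short transcripts. Its median log2 ratio to SEC replicate 2 was 0.73 for 1572 genes with transcripts under 1000 nt and −0.09 for 5092 genes in the length range of the members, 1617 to 2517 nt.

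Several laccase transcripts are cleaved under the guidance of microRNAs that accumulate when copper is short, and the sequences are shown because LAC7 and LAC13, described below, are such targets while other known targets had hardly any reads. The capitals in each microRNA mark the seed, bases 2 to 8. The sequences were read from the RefSeq genome of build TAIR10.1.
miR397a: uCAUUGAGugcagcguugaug
miR408-3p: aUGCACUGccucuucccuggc
miR857: uUUUGUAUguugaagguguau

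For each of 7 known targets the best complementary stretch found in its transcript follows. The capitals mark bases that pair with the microRNA only as G with U or not at all.
LAC2, miR397a: AatcaaTgctgcactcaatga
LAC4, miR397a: AGtcaacgctgcactTaatga
LAC17, miR397a: AatcaaTgctgcactTaatga
LAC3, miR408-3p: AccagTgaagaggcTgtgcaG
LAC12, miR408-3p: gccGgTgaagaggcTgtgcaA
LAC13, miR408-3p: gccGgTgaagaggcTgtgcaG
LAC7, miR857: aCacaccttcaacGtacaaaa

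All 7 stretches lie in coding sequence. The LAC7 stretch is at chr3:2829996-2830397 on the minus strand of TAIR10.1, split by an intron, and has 1 mismatch and 1 G:U pair. LAC13 has its stretch at chr5:2210756-2210776 on the plus strand, with 3 mismatches and 1 G:U pair. For LAC17 it is at chr5:24169068-24169088 on the plus strand, with 1 mismatch and 2 G:U pairs. Of these 7 laccases, LAC7 was the only one with more than 24 counts in any library, and LAC2 and LAC3 had 0 counts in all 4.

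Laccase RNA was low in both cell types and its make-up differed between them. LAC7 was called higher in SECs, and the other 3 tested laccases did not pass. By edgeR 0 were called higher in RECs, and DESeq2 and limma voom also called 0. Among all 18384 tested genes, 0.495% were called higher in RECs and 2.18% higher in SECs. An unadjusted p under 0.05 by edgeR was seen for 0 of the 4 toward RECs and 2 toward SECs. Over all tested genes it was seen for 1740 and 2591. Over the 17 genes the summed level was 6.12 and 7.54 CPM in RECs, against 18.4 and 45.1 CPM in SECs. Counts were seen for 12 laccases, but only 4 (LAC6, LAC7, LAC13 and LAC15) passed the filter on low counts, so the 13 others could not be tested.

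LAC7 (AT3G09220), the laccase targeted by miR857, had 2 and 0 counts in RECs, against 220 and 479 counts in SECs. In CPM these are 0.157 and 0 in RECs against 16.98 and 30.75 in SECs, so the groups were far apart. Scaled for library size, the ratio of summed counts was 340 in favour of SECs. Its exact 95% interval of 93.7 to 2810 covers counting error of reads only. The adjusted p was 0.0290 by edgeR and 0.0955 by limma voom. With each library left out in turn, its log2 fold change lay between −11.43 and −7.16, sizes that rest on the 2 and 0 counts in RECs. LAC7 made up 92.2% and 68.2% of the laccase level per kb of transcript in the SEC libraries.

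LAC15 (AT5G48100, also TT10), which oxidises flavonoids in the seed coat, had 0 and 0 counts in RECs against 18 and 118 counts in SECs. Set against 3 counts over the REC pair, the limit that a count of 0 allows, its measured level was at least 44.0-fold higher in SECs. With SEC replicate 2 left out it was at least 12.8-fold. Such bounds allow for counting error in the pair at 0 only. They do not cover the spread between libraries, as where LAC6 had 0 and 70 counts within the SEC pair. The SEC libraries were themselves far apart, at 1.39 and 7.58 CPM, and the adjusted p of 0.0837 by edgeR missed the threshold. DESeq2 gave 2.63e-04. Markers of the seed coat are given beside it because LAC15 is best known there. BAN, TT12, TT2 and AHA10 summed to 2.98 and 5.41 CPM in RECs, against 0.0772 and 5.78 CPM in SECs, and 4 of 4 had a count. TT12 had 19 and 21 counts in RECs, against 1 and 1 in SECs. BAN had 10 and 11 counts in RECs, against 0 and 47 in SECs, and AHA10 had 9 and 49, against 0 and 37. TT2 had 0 and 0 counts in RECs, against 0 and 5 in SECs. The part of seed coat cells in the LAC15 counts was not tested.

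LAC6 (AT2G46570) and LAC13 (AT5G07130) had more reads in RECs than most laccases. LAC6 had 4.48 and 3.20 CPM in RECs, against 0 and 4.49 CPM in SECs, so the groups overlapped (fitted log2 difference 0.76, SE 1.55, adjusted p = 0.811 by edgeR). Leaving out SEC replicate 1 gave −0.23, and leaving out SEC replicate 2 gave 8.71 against a library with 0 counts. The gene AT2G46572 covers all of LAC6 on the opposite strand and had 30 and 45 counts in RECs, against 0 and 57 in SECs, where LAC6 had 57 and 48, and 0 and 70. The library kit does not mark strand, so reads of the pair cannot be told apart. LAC13, a target of miR408, had 0.864 and 1.60 CPM in RECs, against 0 and 0.449 CPM in SECs. Both REC libraries lay above both SEC libraries, but the log2 fold change of 2.37 had an SE of 1.44 and an adjusted p of 0.387 by edgeR. It was 1.45 with SEC replicate 1 left out, and 7.09 against a library with 0 counts with SEC replicate 2 left out.

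The laccases best known for stem lignin were at or near 0. LAC4 (AT2G38080, IRX12) had 1 count in RECs, against 0 in SECs. For LAC17 (AT5G60020) there were 3 and 0 counts in RECs, against 0 and 9 in SECs, and AT5G60022 covers 91.9% of it on the other strand. LAC11 (AT5G03260) had 0 and 11 counts in RECs, against 0 and 8 in SECs. For LAC11 and LAC17 the replicates of each group differed as much as the groups did.

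LAC5 (AT2G40370) and LAC10 (AT5G01190) were read in RECs alone. LAC5 had 2 and 16 counts in RECs, against 0 and 0 in SECs, which is at least 6.17-fold higher in RECs. LAC10 had 1 and 7 counts in RECs, against 0 and 0 in SECs, or at least 2.74-fold higher. Both bounds use 3 counts over the SEC pair, do not cover the spread between libraries and rest mainly on REC replicate 2. With that library left out the LAC5 bound was 1.49-fold, and LAC10 was below the limit. LAC1 (AT1G18140) had 1 and 6 counts in RECs, against 0 and 8 in SECs. LAC8 (AT5G01040) had 0 counts in RECs, against 0 and 3 in SECs, and LAC12 (AT5G05390) had 1 count in RECs, against 0 in SECs. The coding sequences of LAC8 and LAC9 are 92.6% identical with a shared run of 95 nt, so counts of this pair are uncertain. LAC2 (AT2G29130), LAC3 (AT2G30210), LAC9 (AT5G01050), LAC14 (AT5G09360) and LAC16 (AT5G58910) had 0 counts in all 4 libraries, which allows up to 0.0533 CPM.

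**Figure D1:**
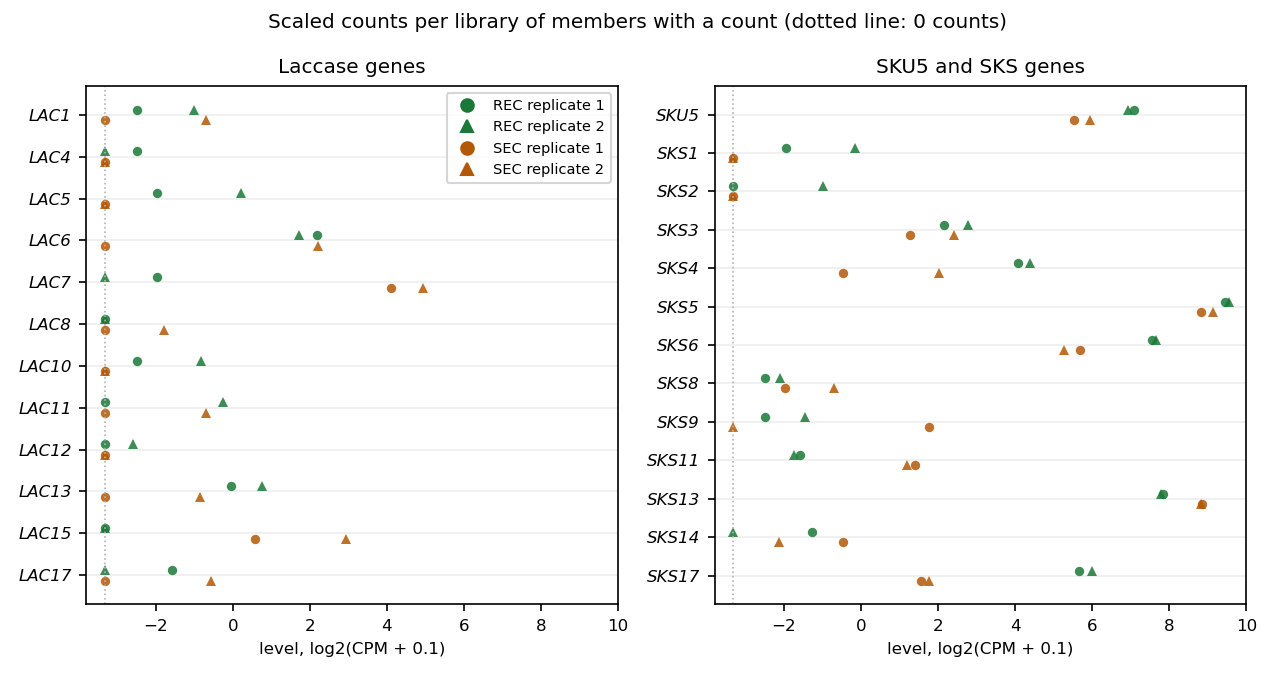
Levels of the 25 members with a count, in log2(CPM + 0.1), with laccases on the left and SKU5 and SKS genes on the right. Each point is 1 library (circle, replicate 1; triangle, replicate 2), with RECs in green and SECs in brown; LAC7 and LAC15 have SEC points far to the right of REC points, and SKS6 and SKS17 show the opposite order.

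The SKU5 and SKS family was far more abundant and split between the cell types. SKS6 and SKS17 were called higher in RECs, SKS13 was called higher in SECs, and 5 of the 8 tested members did not pass. Over all tested genes 0.495% were called higher in RECs and 2.18% in SECs. Both REC libraries lay above both SEC libraries for 5 of the 8 and both SEC libraries above both REC libraries for 2, against 29.8% and 28.2% of all tested genes. The summed level of the 19 genes was 1318 and 1392 CPM in RECs, against 1020 and 1132 CPM in SECs. Of the 19, 13 had a count, 8 passed the filter and 11 could not be tested.

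SKS17 (AT5G66920) had 50.3 and 63.5 CPM in RECs against 2.86 and 3.27 CPM in SECs. The libraries of each group were close and the groups far apart, with 18.5-fold more in RECs (fitted log2 difference 4.21, SE 0.29, adjusted p = 0.0267 by edgeR, the smallest value reached by any gene). It was called in all 12 alternative fits, at log2 fold changes of 4.03 to 4.40. Its nearest relative among the members is SKS15, at 64.1% identity of the coding sequence, which had 0 counts.

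SKS6 (AT1G41830), which takes part in vein patterning of cotyledons, had 186 and 202 CPM in RECs against 51.6 and 38.4 CPM in SECs. This is 4.31-fold more in RECs (fitted log2 difference 2.11, SE 0.24, adjusted p = 0.0306 by edgeR), and the difference exceeded the spread within either pair. With REC replicate 1 left out, so that the spread comes from the SECs, the adjusted p was 0.0650 by edgeR.

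SKS13 (AT3G13400) had 229 and 220 CPM in RECs against 459 and 453 CPM in SECs. The libraries of each group were close, and the level in SECs was 2.03-fold that in RECs (fitted log2 difference −1.02, SE 0.16, adjusted p = 0.0462 by edgeR). The log2 fold change stayed between −1.17 and −0.93 in the 12 alternatives. It no longer passed with upper-quartile scaling, at an adjusted p of 0.0603 by edgeR, or with REC replicate 1 (0.573) or REC replicate 2 (0.588) left out.

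SKS13 belongs to a subgroup with SKS11, SKS12 and SKS14, of which SKS11 and SKS12 are known from pollen tubes. SKS11 (AT3G13390), its neighbour on the chromosome, had 3 and 3 counts in RECs, against 33 and 34 in SECs. In CPM this is 0.236 and 0.200 against 2.55 and 2.18, with no overlap, and the test was missed (fitted log2 difference −3.39, SE 0.84, adjusted p = 0.0917 by edgeR). SKS12 (AT1G55570) had 0 counts in all libraries, and SKS14 (AT1G55560) had 4 and 0 counts in RECs, against 8 and 2 in SECs. The coding sequences of SKS13 and SKS14 are 83.6% identical and their transcripts share no run longer than 29 nt. The 8 pollen markers summed to 2.04 and 4.47 CPM in RECs, against 3.47 and 1.60 CPM in SECs, and all 8 had a count somewhere. Single markers differed, with ACA9 at 11 and 55 counts in RECs, against 0 and 0 in SECs. GCS1 had 2 and 0 counts in RECs, against 17 and 0 in SECs, and HTR10 had 0 and 0, against 12 and 0. The 4 tapetum markers summed to 1.41 and 0.200 CPM in RECs, against 0.309 and 2.89 CPM in SECs, with MS2 at 0. The part of pollen or tapetum cells in the SKS13 and SKS11 results was not tested.

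SKU5, SKS4, SKS5 and SKS3 had positive log2 fold changes that did not pass. SKU5 (AT4G12420) had 136 and 123 CPM in RECs against 46.2 and 61.8 CPM in SECs, without overlap (fitted log2 difference 1.26, SE 0.24, adjusted p = 0.0603 by edgeR). DESeq2 gave SKU5 an adjusted p of 4.76e-04, and after removal of the length trend its log2 fold change was 1.03 (adjusted p = 0.0156 by edgeR). SKS4 (AT4G22010) had 16.8 and 20.8 CPM in RECs against 0.618 and 3.98 CPM in SECs (fitted log2 difference 3.01, SE 0.81, adjusted p = 0.105 by edgeR). Its SEC libraries differed by 2.69 on the log2 scale, and the fitted difference was 2.24 with SEC replicate 1 left out and 4.92 with SEC replicate 2 left out. SKS5 (AT1G76160), the most abundant member in RECs, had 694 and 756 CPM in RECs, against 450 and 564 CPM in SECs (fitted log2 difference 0.52, SE 0.18, adjusted p = 0.171 by edgeR). SKS3 (AT5G48450) had 4.32 and 6.74 CPM in RECs, against 2.32 and 5.20 CPM in SECs, and its groups overlapped (fitted log2 difference 0.55, SE 0.57, adjusted p = 0.613 by edgeR).

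**Figure D2:**
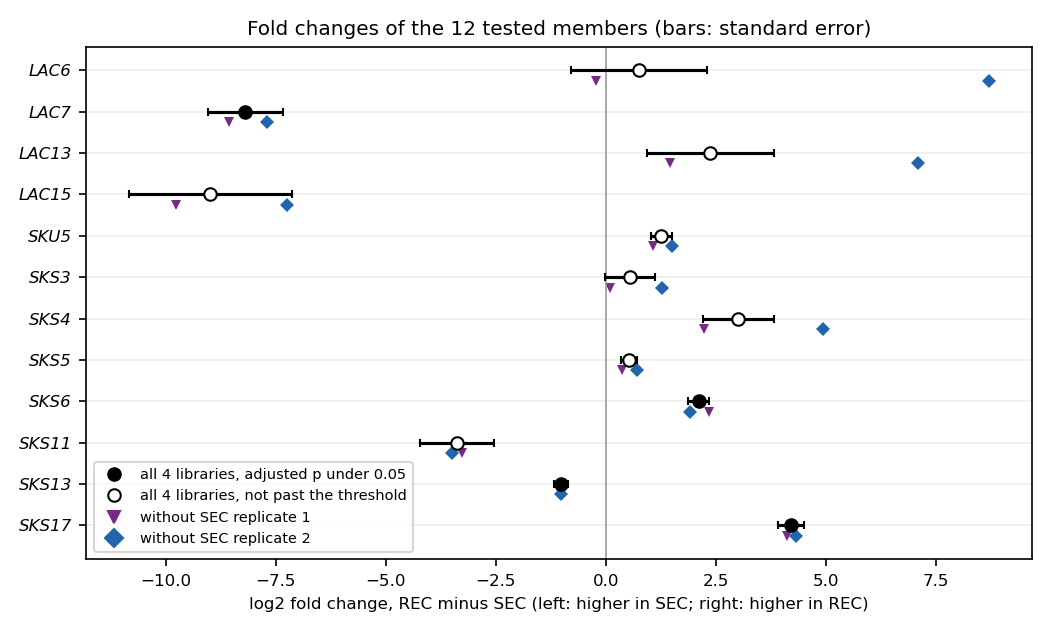
Log2 fold changes (REC minus SEC) of the 12 tested members with the standard error, filled where the adjusted p was under 0.05, and the values without each SEC library. SKS6, SKS11, SKS13 and SKS17 kept nearly the same value with either SEC library, while LAC6 and LAC13, at 0 counts in SEC replicate 1, and SKS4 moved widely; the fitted sizes of LAC7 and LAC15 rest on 2 and 0 counts in RECs and are no bounds.

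The remaining SKS genes were near or at 0. SKS1 (AT4G25240) had 2 and 12 counts in RECs, against 0 and 0 in SECs, at least 4.80-fold higher in RECs against 3 counts over the SEC pair. With REC replicate 2 left out this bound, which does not cover the spread between libraries, was 1.49-fold. SKS2 (AT5G51480), its closest relative at 82.6% identity, had 0 and 6 counts in RECs, against 0 and 0 in SECs. SKS9 (AT4G38420) had 1 and 4 counts in RECs, against 43 and 0 in SECs, so that 1 library held nearly all of its reads. SKS8 (AT1G21850) had 1 and 2 counts in RECs, against 2 and 8 in SECs. SKS7 (AT1G21860), SKS10 (AT4G28090), SKS15 (AT4G37160), SKS16 (AT2G23630) and SKS18 (AT1G75790) had, like SKS12, 0 counts in all libraries.

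Levels of the SKS genes were ordered per kb of transcript. In RECs the order of mean levels was SKS5 at 316, SKS13 at 113, SKS6 at 91.6, SKU5 at 51.5, SKS17 at 26.0 and SKS4 at 8.86 CPM per kb. SKS5 to SKS17 kept that order in both REC libraries. In SECs SKS13 stood at 230 and SKS5 at 221 CPM per kb, and their order differed between the libraries, with 232 and 229 for SKS13 and 197 and 246 for SKS5. SKU5 and SKS6 followed at 21.5 and 21.3 CPM per kb and also changed places between the SEC libraries. SKS13 made up 19.5% and 17.7% of the family's level per kb in RECs, against 48.6% and 43.6% in SECs. SKS6 made up 14.8% and 15.2% in RECs, against 5.11% and 3.45% in SECs. Summed per kb, the SKS family came to 594 and 628 in RECs, against 477 and 525 in SECs, and the laccases to 2.78 and 3.60 in RECs, against 8.66 and 21.2 in SECs.

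**Figure D3:**
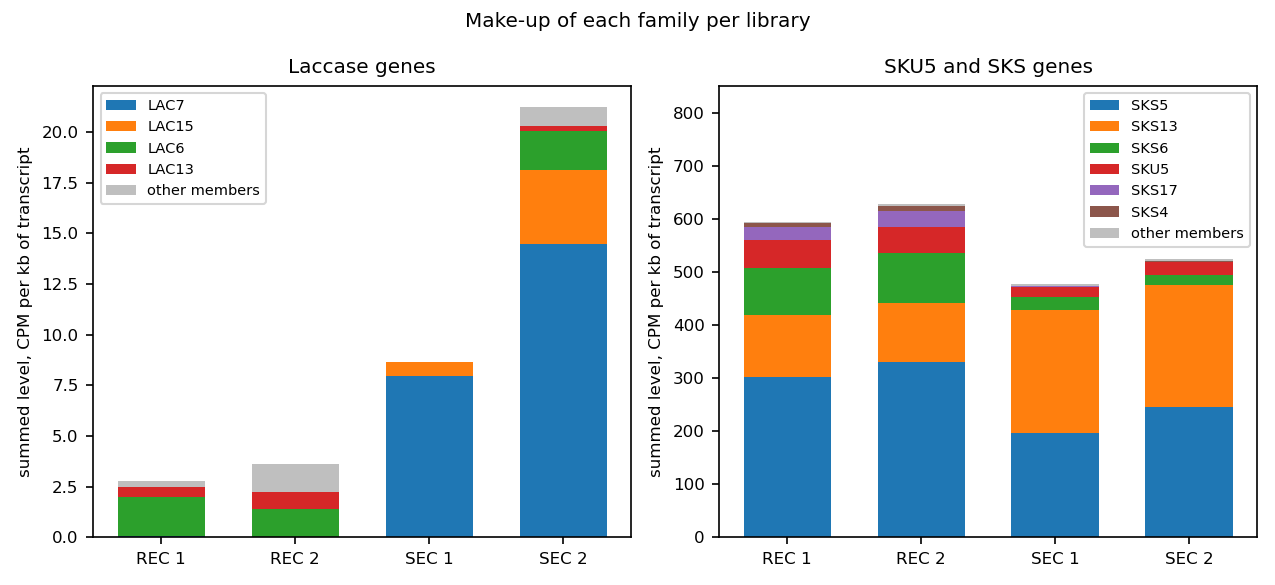
Summed level per library in CPM per kb of transcript, stacked by gene, for laccases (left) and SKU5 and SKS genes (right), on separate axes that start at 0. LAC7 fills most of the laccase bars in SECs and none of note in RECs, and the SKS13 band is wider in SECs while SKS6, SKU5 and SKS17 are wider in RECs.

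Genes that make the substrates of laccases were also set side by side. Monolignols are made from phenylalanine by a chain that starts with PAL and ends with CAD. Of 17 tested members of the 18 listed, 7 were called higher in SECs and 0 in RECs by edgeR. Over all tested genes, 2.18% were called higher in SECs and 0.495% in RECs. The median log2 fold change was −1.21 in the list, against 0.02 over all tested genes. A positive log2 fold change was seen for 2 of the 17. The larger was that of 4CL2, not called, with 98.2 and 106 CPM in RECs, against 46.7 and 78.7 CPM in SECs. 4CL1, a ligase that activates hydroxycinnamic acids, had 71.4 and 71.9 CPM in RECs, against 386 and 443 CPM in SECs. HCT, CCoAOMT1, 4CL3 and C4H were called too, at 3.34-fold, 2.09-fold, 6.43-fold and 2.76-fold more in SECs. PAL1 and CAD5 completed the 7. CCoAOMT1, which methylates caffeoyl-CoA, had 813 and 753 CPM in RECs, against 1674 and 1605 CPM in SECs. With upper-quartile scaling the calls of PAL1, CCoAOMT1 and CAD5 were lost. Of the 7, 4CL1 alone passed with REC replicate 1 left out, and 4CL1, 4CL3 and PAL1 with REC replicate 2 left out.

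Among 9 regulators of lignin genes, MYB58 and MYB63 were tested and both were called higher in SECs, against 2.18% of all tested genes. MYB63 had 22.1 and 22.6 CPM in RECs, against 96.3 and 66.5 CPM in SECs (fitted log2 difference −1.87, SE 0.27, adjusted p = 0.0405 by edgeR). MYB58 had 1.26 and 1.13 CPM in RECs, against 15.7 and 17.1 CPM in SECs, but AT1G16489 covers it on the opposite strand and had 8 and 11 counts in RECs, against 168 and 244 in SECs. Of the other 7, MYB46 had 5 counts in all and 6 had 0. MYB63 no longer passed with upper-quartile scaling (adjusted p = 0.0510 by edgeR) or with REC replicate 1 (0.311) or 2 (0.197) left out, and MYB58 no longer passed with REC replicate 1 left out (0.0533). Of 8 peroxidases linked to lignin 4 were tested and 0 called by edgeR, with a median log2 fold change of 0.50. PRX17 had an unadjusted p under 0.05, with 75.1 and 80.3 CPM in RECs, against 34.8 and 37.7 CPM in SECs, and was the 1 gene of the list that DESeq2 called.

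MYB58 and MYB63 bind AC elements. Of 26711 promoters, taken as the 250 bases before the start of a gene, 1.16% held the element ACCTACC on either strand. The form ACCAACC was in 2.71% and the form ACCTAAC in 2.45%. At least 1 of these letter strings was in 6.12% of promoters, and among the members in those of LAC1, LAC2, LAC8, LAC10, LAC11 and LAC17. LAC7, LAC15 and the SKS genes had none in that window.

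Laccases need copper, and their microRNAs are switched on by SPL7 when it is scarce. Of 15 tested copper genes of 16 listed, CCH alone was called, and the median log2 fold change was −0.27. Over all tested genes 2.18% were called higher in SECs and 0.495% in RECs. CCH, a copper chaperone, had 22.5 and 18.4 CPM in RECs, against 140 and 124 CPM in SECs, 6.45-fold more in SECs (fitted log2 difference −2.69, SE 0.24, adjusted p = 0.0267 by edgeR). With REC replicate 1 left out its adjusted p was 0.0533. SPL7 had 40.7 and 42.7 CPM in RECs, against 15.7 and 57.3 CPM in SECs (adjusted p = 0.882 by edgeR), and its log2 fold change was −0.46 with SEC replicate 1 left out and 1.42 with SEC replicate 2 left out. ARPN, the plantacyanin gene that miR408 also targets, had 3.22 and 2.87 CPM in RECs, against 10.9 and 8.47 CPM in SECs without overlap (fitted log2 difference −1.67, SE 0.39, adjusted p = 0.0829 by edgeR).

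Of the microRNA precursors, MIR408 had 29.0 and 30.4 CPM in RECs, against 47.0 and 21.9 CPM in SECs, and the groups overlapped (fitted log2 difference −0.21, SE 0.40, adjusted p = 0.794 by edgeR). Its sign turned with the length trend removed (0.38) and with SEC replicate 1 left out (0.44). The locus is covered by AT2G47020 on the other strand, whose counts were 359 and 501 in RECs, against 583 and 343 in SECs, next to 369 and 456, and 609 and 341, for MIR408. MIR857 had 3 and 1 counts in RECs, against 0 and 0 in SECs, MIR397A had 0 and 2 counts in RECs, against 0 and 0 in SECs, and MIR397B had 0 throughout. AT4G05110 covers all of MIR397A on the other strand and had 154 and 106 counts in RECs, against 30 and 228 in SECs. As the kit does not mark strand, the reads over MIR408 and MIR397A cannot be assigned to the precursors. None of these counts is of a mature microRNA. Among 5 other multicopper oxidases, the LPR and ascorbate oxidase genes, 5 were tested and 0 were called by edgeR or DESeq2. By edgeR 1740 of 18384 tested genes had an unadjusted p under 0.05 toward RECs and 2591 toward SECs, against 0 of these 5. Of these AT5G21105, an ascorbate oxidase gene, had 331 and 350 CPM in RECs, against 164 and 279 CPM in SECs (fitted log2 difference 0.62, SE 0.29, adjusted p = 0.267 by edgeR).

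Xylem is the tissue in which laccases are best known, and its markers are given beside LAC7 and the monolignol genes. Of 8 listed, XCP2 had 0 counts and 4 were tested. MC9, a metacaspase gene, was called higher in SECs, as were 2.18% of all tested genes. It had 4.55 and 1.87 CPM in RECs, against 48.6 and 80.9 CPM in SECs. The list summed to 8.24 and 6.14 CPM in RECs, against 51.03 and 84.4 CPM in SECs, nearly all of the SEC sum being MC9. The part of xylem cells in the LAC7 result was not tested. Of the cellulose synthase genes of secondary walls, CESA4 had 1.02 and 2.20 CPM in RECs, against 1.39 and 0 CPM in SECs. CESA7 had 1.02 and 1.13 CPM in RECs, against 0 and 0.963 CPM in SECs. CESA8 had 0.393 and 0 CPM in RECs, against 0.386 and 0.514 CPM in SECs. For XCP1 the levels were 0.707 and 0.934 CPM in RECs, against 0.540 and 1.60 CPM in SECs. VND7 had 7 and 0 counts in RECs, against 0 and 6 in SECs, and VND6 had 0 in RECs, against 1 and 0 in SECs.

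**Figure D4:**
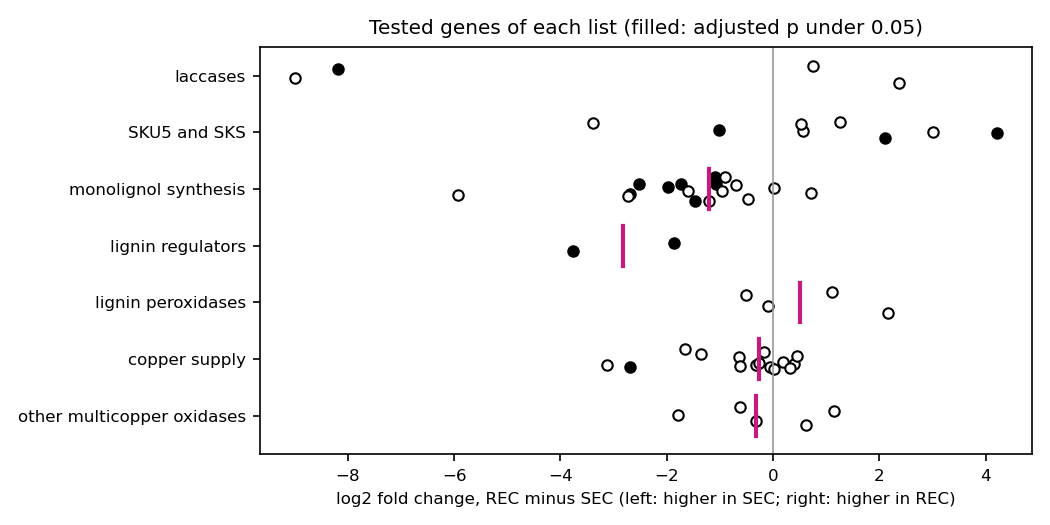
Log2 fold changes (REC minus SEC) of the tested genes of each list, 1 point a gene, filled where the adjusted p was under 0.05, with the median of each pathway list as a bar. All filled points of the monolignol, regulator and copper lists lie on the SEC side, and the filled points of the SKU5 and SKS family lie on both sides.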

How the data were processed

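The authors deposited unnormalized counts per gene, 1 table a sample. The submitters' processing notes name HTSeq 0.6.1, TopHat2 2.0.9, Trimmomatic 0.32.3 and build TAIR10. The annotation and strand setting behind the counting were not stated in the sources used here. Per the labels, cDNA was made with SMART-Seq V4 and libraries with TruSeq v2, without molecular identifiers. Amplified copies cannot be told from separate molecules, so intervals cover counting error of reads only and not that of molecules. Groups came from the titles. The genotype label of each sample names a different promoter, proQRT2 to proQRT5, while the series' design names proQRT2 for the sorted plants.

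The 5 lines that name no gene stayed out. Of the records, 46.8% to 47.7% were assigned to no gene, 5.64% to 7.48% were not unique and 0.367% to 0.438% were in the other lines. Whether those assigned to no gene include reads from the opposite strand of genes was not tested. The test was edgeR's (version 4.0.16, R 4.3.3; glmQLFit and glmQLFTest, TMM, filterByExpr, group only), adjusted by Benjamini and Hochberg, two-sided. CPM use TMM-scaled sizes, and 3 counts are 0.193 to 0.236 CPM. An SE is the log2 fold change over the root of F. The testing step was tested on simulated data. The alternatives included DESeq2 1.42.0 and limma 3.58.1 (voom).

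Names, lengths, sequences and overlaps came from RefSeq TAIR10.1, matched by locus for 32835 of 33602 genes; the files give no coordinates. Members, lists (89 genes in 11 lists) and named genes were chosen with earlier results of these data known. Named genes are called members, members at 5 CPM or more in a group, up to 5 called genes a list, and the precursors; ARPN, PAL1, CAD5 and other unlisted examples were added after their values were seen.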

Additional observations from a re-analysis of the deposited data

How the results depend on the processing

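Of the 12 tested members, none changed direction under the 12 alternatives except LAC6, at −0.23 without SEC replicate 1 and 8.71 without SEC replicate 2. MIR408 turned to 0.38 with the transcript length trend removed and to 0.44 without SEC replicate 1, and was at −0.65 without SEC replicate 2. Laccase calls in SECs were 2 without a count filter, by DESeq2 and with the length trend removed, and 0 by limma voom. SKS calls in RECs were 4 by DESeq2 and with the length trend removed, SKU5 and SKS4 being added, and SKS calls in SECs were 0 with upper-quartile scaling. Over all genes 91 were called in RECs and 400 in SECs. These counts were 280 and 836 without a count filter, 763 and 1574 by DESeq2 and 780 and 1758 with the length trend removed, and 254 were called in SECs with upper-quartile scaling, which moved the median log2 fold change of all genes to 0.12. Monolignol calls in SECs, 7 by edgeR, were 4 with upper-quartile scaling, 12 by DESeq2 and 13 with the length trend removed, and copper calls, 1 by edgeR, were 2 without a count filter and 3 by DESeq2 and with the length trend removed. The numbers 1 and 2 do not pair the samples by any label, and the deviations of same-numbered samples correlated at 0.0384; with a replicate block 2 laccases were called in SECs, 4 SKS genes in RECs, 11 monolignol and 2 copper genes in SECs, and 526 and 1161 of all genes. Leaving out each library gave 0 to 2 laccase calls in RECs and 1 to 2 in SECs, 1 to 6 SKS calls in RECs and 0 to 3 in SECs, 2 to 15 monolignol, 0 to 2 regulator and 0 to 8 copper calls in SECs, and 28 to 5630 and 86 to 4991 over all genes. Without a SEC library the REC pair alone sets the spread and calls are many, and without a REC library the SEC pair sets it. With 2 libraries a group an exact permutation test cannot give a p below 0.333, and 24 of the 36 members were too low to test.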

Other observations

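Several members have a close relative with very different read numbers. SKS13 averaged 113 CPM per kb of transcript in RECs, against 230 in SECs, and SKS14, at 83.6% identity of the coding sequence, had 4 and 0 counts in RECs, against 8 and 2 in SECs. SKS11 had 67 counts in SECs and its relative SKS12, at 82.6% identity, had 0 in all libraries. SKS1 and SKS2, also at 82.6% identity, were both read in RECs and at 0 counts in SECs, with 14 and 6 counts in RECs. SKS9 had 43 counts in SEC replicate 1 alone and its relative SKS10, at 81.3% identity, had 0 in all libraries. Among laccases, LAC7 is at most 62.6% identical to any other member and LAC15 at most 59.0%, and neither shares an exact run longer than 26 nt with one.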
